A study of Mus musculus with 8 samples.

Results

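A set of 10 genes of the epithelial to mesenchymal transition were followed through all 8 libraries: the transcription factors Snai1, Snai2, Zeb1, Zeb2, Twist1 and Twist2, the cadherins Cdh1 and Cdh2, the intermediate filament gene Vim and the epithelial surface gene Epcam. They are 10 of the 53697 genes in the deposited count table and were chosen by name, with earlier results of these data known. All 10 passed the filter on low counts. RNA came from mammary tumors of MMTV-PyMT mice on a C57BL/6 background, in which the mammary tumor virus promoter drives the polyoma middle T oncogene in mammary epithelium. Mice 1 and 2 (PyMT-Dll1 GFP) carried a GFP-IRES-Cre-ERT2 cassette knocked into Dll1, the gene of a Notch ligand, and mice 3 and 4 (PyMT-Dll1 mCh) carried a BAC-based mCherry reporter of Dll1. Dissociated tumors were depleted of CD45+, CD31+ and Ter119+ cells and sorted by the reporter. The Dll1- and the Dll1+ cells of a mouse were sequenced as 1 library each, so each of the 4 groups of reporter and Dll1 status held 2 libraries. The ages of these mice are not given in the sources used here. No marker of fibroblasts was used in the sort.

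In the epithelial to mesenchymal transition, epithelial cells lose adherens and tight junctions and take on motile, mesenchymal features. Snail, Zeb and Twist family factors bind short DNA elements called E-boxes and repress junction genes such as Cdh1, which encodes E-cadherin, while N-cadherin (Cdh2) and vimentin (Vim) mark the mesenchymal end. The same factors, Vim and Cdh2 are also expressed by fibroblasts and other stromal cells of the mammary gland, so in bulk RNA a lower level in a sorted population can come from fewer cells of a type or from less RNA per cell, and these cannot be told apart.

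RefSeq promoter windows on GRCm38.p6 were matched by symbol for 6 of the 10 genes (Snai1, Zeb2, Twist1, Twist2, Vim and Epcam). The 250 bases before the start are shown for an epithelial gene (Epcam, chr17:87635729-87635978, plus strand) and the mesenchymal marker (Vim, chr2:13574061-13574310, plus strand). Also shown are a factor that passed the test within the GFP mice (Snai1, chr2:167537945-167538194, plus strand) and the factor with the widest range over the libraries (Twist1, chr12:33957421-33957670, plus strand). Capitals mark E-boxes.
Epcam: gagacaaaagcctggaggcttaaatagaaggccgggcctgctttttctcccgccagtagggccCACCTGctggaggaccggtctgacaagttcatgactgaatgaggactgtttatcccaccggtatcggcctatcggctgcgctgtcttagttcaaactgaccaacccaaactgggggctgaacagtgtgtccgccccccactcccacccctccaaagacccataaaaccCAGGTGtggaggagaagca
Snai1: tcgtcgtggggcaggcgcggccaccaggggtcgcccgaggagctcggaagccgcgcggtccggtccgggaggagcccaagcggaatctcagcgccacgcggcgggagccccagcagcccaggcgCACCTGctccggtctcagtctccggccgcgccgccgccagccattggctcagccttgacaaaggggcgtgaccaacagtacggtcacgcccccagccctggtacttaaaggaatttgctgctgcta
Twist1: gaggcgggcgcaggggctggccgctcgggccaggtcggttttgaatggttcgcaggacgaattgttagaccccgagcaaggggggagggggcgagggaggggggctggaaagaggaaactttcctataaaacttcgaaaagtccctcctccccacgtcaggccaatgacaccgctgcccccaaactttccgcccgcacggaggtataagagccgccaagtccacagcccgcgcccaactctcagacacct
Vim: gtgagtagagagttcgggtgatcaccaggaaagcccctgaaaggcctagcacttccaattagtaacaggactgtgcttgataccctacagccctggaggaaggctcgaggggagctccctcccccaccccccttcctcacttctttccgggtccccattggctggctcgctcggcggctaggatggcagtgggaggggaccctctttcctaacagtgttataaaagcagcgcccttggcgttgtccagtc
The E-box was searched as CANNTG, which reads alike on both strands, and its form preferred by Snail and Zeb factors, which is part of that search, as CACCTG or CAGGTG. The Epcam window held 1 CACCTG and 1 CAGGTG, and the Snai1 window held 1 CACCTG. The windows of Twist1, Twist2, Vim and Zeb2 (4 starts) held 0 E-boxes. Of the windows of 27025 genes, 1 each, 66% held CANNTG and 17.1% held CACCTG or CAGGTG. The core of the site of Rbpj, the DNA-binding partner of Notch (TGGGAA, or TTCCCA on the other strand), was in 0 windows of the 6 genes and in 21.5% of all windows. These matches describe letters only, and no match says that the letters are not in this window.

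Total counts ranged from 27301396 to 123907626 per library, and levels are given as TMM-normalized CPM, which scales each count to the total of its library. Dll1 itself was at 7.60 to 50.2 CPM in the Dll1- and at 87.4 to 250 CPM in the Dll1+ libraries, and was higher in the Dll1+ library of 4 of 4 mice, as the labels say. Epithelial RNA was present in every library, with Epcam at 898 to 1238 CPM and Cdh1 at 450 to 675 CPM. Stromal RNA was also present. The summed level of 13 fibroblast markers (Col1a1, Pdgfra and others, without Twist2) was 1301 to 1541 CPM in the 4 libraries of the GFP mice, 3836 and 4010 CPM in the Dll1+ libraries of mice 3 and 4, and 8820 and 25318 CPM in their Dll1- libraries. The Dll1- library of mouse 4 stood apart, so the calls among the 10 genes and the counts of stromal markers called in the mCh mice are also given without mouse 4. The 11 pericyte and smooth muscle markers summed to 235 to 285 CPM in the GFP mice, 271 and 303 CPM in the mCh Dll1+ libraries and 777 and 974 CPM in the mCh Dll1- libraries. For the 12 endothelial markers the same ranges were 80 to 87 CPM, 160 and 161 CPM, and 289 and 640 CPM, although CD31+ cells had been depleted. No marker of these lists was at 0 in any library.

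Levels were compared per kilobase of the principal transcript. Epcam ranged from 440 to 607 CPM per kb over the 8 libraries and Cdh1 from 102 to 152 CPM per kb, and these ranges did not overlap. Vim had a median of 98.6 CPM per kb but ranged from 26.3 to 600 CPM per kb and so overlapped with both. It was below Cdh1 in the 4 libraries of the GFP mice, above Cdh1 in the 4 libraries of the mCh mice and above Epcam in the Dll1- library of mouse 4. Snai1 was the most abundant of the 6 factors, with 8.97 to 18.8 CPM per kb, above the highest library of every other factor. The medians of Snai2 (1.59 CPM per kb), Cdh2 (1.298), Twist1 (0.772), Zeb1 (0.540), Zeb2 (0.395) and Twist2 (0.182) came next, and each of these overlapped with its neighbours in range. The genes also differed in how far they spread. The highest library was 1.38 times the lowest for Epcam and 1.499 times for Cdh1, against 70.0 times for Twist1, 25.0 times for Twist2, 22.8 times for Vim, 12.2 times for Zeb1 and 8.21 times for Zeb2.

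**Figure D1:**
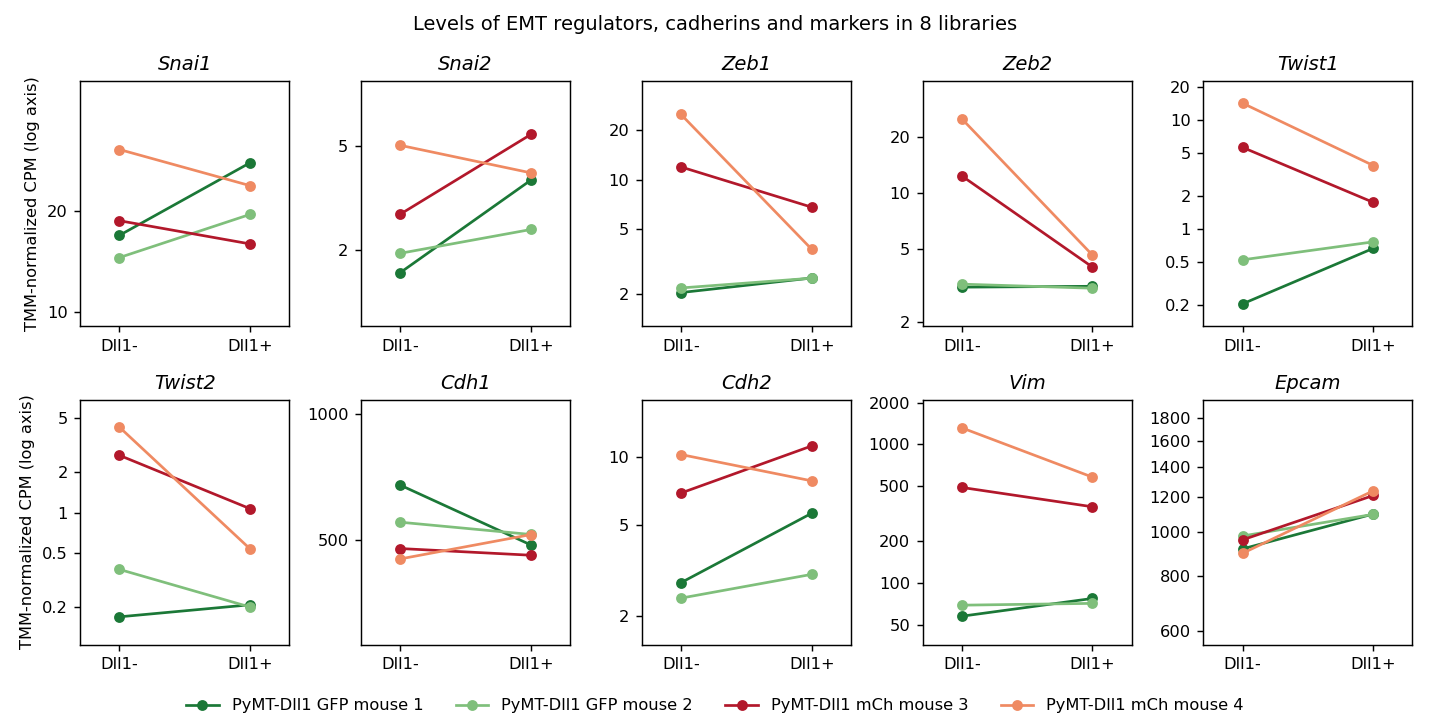
CPM after TMM normalization (log axis) of each of the 10 genes in the Dll1- and Dll1+ library of each mouse, 1 point per library and 1 line per mouse. Zeb1, Zeb2, Twist1 and Twist2 are highest in the Dll1- libraries of mCh mice 3 and 4, Vim is highest in the Dll1- and then the Dll1+ library of mouse 4, and Epcam is higher in the Dll1+ library of 4 of 4 mice.

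The first question was whether Dll1+ and Dll1- cells of the same mice differed in these genes. Over the 4 mice, 0 of the 10 genes passed the test (edgeR quasi-likelihood, mouse as a block, Benjamini-Hochberg adjusted p under 0.05), against 14.0% of the 18322 genes tested. At an unadjusted p under 0.05 there were 2, Epcam and Twist2, beside 5936 of the 18322 genes tested. DESeq2 called 1, Epcam, beside 4362 of the 18322. The median log2 fold change of the 10 was -0.20, beside -0.00068 over all tested genes. Epcam, which encodes a homophilic adhesion molecule of epithelial cells, was at 918 and 1099 CPM in the Dll1- and Dll1+ libraries of mouse 1, 981 and 1097 CPM in mouse 2, 962 and 1209 CPM in mouse 3, and 898 and 1238 CPM in mouse 4. In 4 of 4 mice the Dll1+ cells had more of it, and the Dll1+ and Dll1- libraries did not overlap, with a log2 fold change of 0.30 ± 0.08 (SE), but its adjusted p was 0.0622. It passed the threshold with RLE size factors (adjusted p = 0.0497) and with at least 10 counts in every library (adjusted p = 0.0492). The 10 luminal epithelial markers, summed, were also higher in the Dll1+ libraries, at 16868 to 20350 CPM against 10436 to 14118 CPM, but in every mouse most of the difference in that sum was one milk gene. Csn3, which encodes kappa-casein, went from 6421 to 12040 CPM in mouse 1, 6418 to 12946 CPM in mouse 2, 4460 to 8496 CPM in mouse 3 and 6709 to 9732 CPM in mouse 4. Of the 10, 2 rose and 1, Prom1, fell (-0.65 ± 0.05 on the log2 scale, SE, adjusted p = 0.00534), and Krt19, Krt7 and Cd24a were lower in the Dll1+ library of both GFP mice. The part of these markers in the Epcam difference was not tested.

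Cdh1 did not follow Epcam. E-cadherin transcripts were at 675 and 486 CPM in the Dll1- and Dll1+ libraries of mouse 1, 551 and 515 CPM in mouse 2, 477 and 459 CPM in mouse 3, and 450 and 515 CPM in mouse 4. The Dll1+ value was thus below the Dll1- value in 3 of 4 mice, and the groups overlapped. The log2 fold change over the 4 mice was -0.11 ± 0.12 (SE), with a 95% interval from -0.39 to 0.17 and an adjusted p of 0.555. Cdh2, the N-cadherin gene, was at 2.79 and 5.64 CPM in mouse 1, 2.39 and 3.04 CPM in mouse 2, 6.93 and 11.2 CPM in mouse 3, and 10.2 and 7.84 CPM in mouse 4, so that 3 of 4 mice had the higher level in Dll1+ cells. Its log2 fold change was 0.41 ± 0.24 (SE), with a 95% interval from -0.18 to 1.001 and an adjusted p of 0.291.

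In the GFP mice, 1 of the 10 genes passed the test, Snai1, which is near the share of 9.13% of all genes tested (4.29% higher). At an unadjusted p under 0.05 there were 2, Snai1 and Twist1, beside 4900 of the 18322 genes tested. Snai1 encodes Snail, a zinc finger repressor of Cdh1. It was at 16.9 and 27.9 CPM in the Dll1- and Dll1+ libraries of mouse 1 and at 14.5 and 19.6 CPM in mouse 2. Both Dll1+ libraries lay above both Dll1- libraries, and Dll1+ cells had 1.49-fold more Snai1 (log2 fold change 0.57 ± 0.12 SE, adjusted p = 0.0328). For Cdh1 these mice gave -0.29 ± 0.13 (log2, SE) and an adjusted p of 0.221. The call of Snai1 was lost when either GFP mouse was left out, which leaves 1 pair (adjusted p = 0.285 without mouse 1 and 0.150 without mouse 2), and with no mouse block (adjusted p = 0.411). Beside Snai1, the summed basal and myoepithelial markers were at 291 and 618 CPM in mouse 1 and at 273 and 387 CPM in mouse 2, and their part in the Snai1 difference was not tested. The summed immune markers were at 280 and 426 CPM and at 242 and 367 CPM, of which Cd14 alone made 194 and 338 CPM and 176 and 288 CPM. Cd14 was the one immune marker of the 12 tested that was called in these mice, and Ptprc, which encodes CD45, was at 3.61 and 4.39 CPM and at 2.87 and 3.31 CPM.

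The other factors were low in the GFP mice. Twist1, a basic helix-loop-helix factor, had 6 and 19 counts in the Dll1- and Dll1+ libraries of mouse 1 and 15 and 34 counts in mouse 2. These are 0.205 and 0.662 CPM, and 0.519 and 0.760 CPM, higher in the Dll1+ library of both mice, with a log2 fold change of 0.998 ± 0.36 (SE) and an adjusted p of 0.142. Twist2 had 5 to 11 counts in each of these libraries, where 3 counts were taken as the limit of detection. Zeb1, a zinc finger and homeodomain repressor, ranged from 2.05 to 2.51 CPM, and its relative Zeb2 from 3.06 to 3.22 CPM. Snai2, which encodes Slug, was at 1.64 and 3.69 CPM in mouse 1 and 1.94 and 2.39 CPM in mouse 2 (adjusted p = 0.333). Vim ranged from 57.7 to 77.5 CPM over the 4 libraries, with a log2 fold change of 0.23 ± 0.20 (SE) and an adjusted p of 0.526. The 14 fibroblast markers gave 0 calls in edgeR's test within the GFP mice, and 0 at an unadjusted p under 0.05.

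In the mCh mice, 3 of the 10 genes passed the test and all 3 were lower in Dll1+ cells, against 11.8% of all genes tested (6.25% lower). They were Zeb2, Twist1 and Twist2. Zeb2 was at 12.4 and 3.98 CPM in the Dll1- and Dll1+ libraries of mouse 3 and at 25.1 and 4.62 CPM in mouse 4. It fell 4.10-fold (log2 fold change -2.04 ± 0.23 SE, adjusted p = 0.00935), and the Dll1+ and Dll1- libraries did not overlap. Twist1 was at 5.62 and 1.75 CPM in mouse 3 and 14.3 and 3.83 CPM in mouse 4, a 3.46-fold lower level (log2 fold change -1.79 ± 0.25 SE, adjusted p = 0.0144). Twist2, at 2.64 and 1.07 CPM in mouse 3 and 4.26 and 0.539 CPM in mouse 4, was 4.25-fold lower (log2 fold change -2.09 ± 0.47 SE, adjusted p = 0.0431). Antisense genes share 653 of the 19942 exon bases of Zeb2 (Zeb2os) and 1477 of the 3174 of Twist2 (Gm29100), and reads in these stretches cannot be told apart, since the strand setting of the counting is not given.

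The remaining genes of the mCh mice missed the threshold in edgeR's test. DESeq2, which called 2473 of the 18322 genes tested, also called Zeb1 (adjusted p = 0.00104), Vim (adjusted p = 0.000189) and Epcam (adjusted p = 0.00132). Vim passed edgeR's test with no filter on low counts (adjusted p = 1.2e-07). Zeb1 was at 11.9 and 6.79 CPM in mouse 3 and 24.9 and 3.76 CPM in mouse 4, lower in Dll1+ cells of both, with a log2 fold change of -1.75 ± 0.50 (SE) and an adjusted p of 0.102. Vim was at 489 and 355 CPM in mouse 3 and 1316 and 580 CPM in mouse 4 (log2 fold change -0.82 ± 0.20 SE, adjusted p = 0.0582), and here the Dll1- library of mouse 3 lay below the Dll1+ library of mouse 4. Snai1 was lower in the Dll1+ library of both mCh mice, at 18.7 and 15.96 CPM in mouse 3 and 30.5 and 23.8 CPM in mouse 4 (log2 fold change -0.29 ± 0.11 SE, adjusted p = 0.140). Snai2, at 2.74 and 5.52 CPM in mouse 3 and 5.01 and 3.94 CPM in mouse 4, differed in direction between these mice. The Epcam difference was 0.40 ± 0.11 (log2, SE) with an adjusted p of 0.0660, and that of Cdh1 was 0.07 ± 0.13 (SE) with an adjusted p of 0.755.

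**Figure D2:**
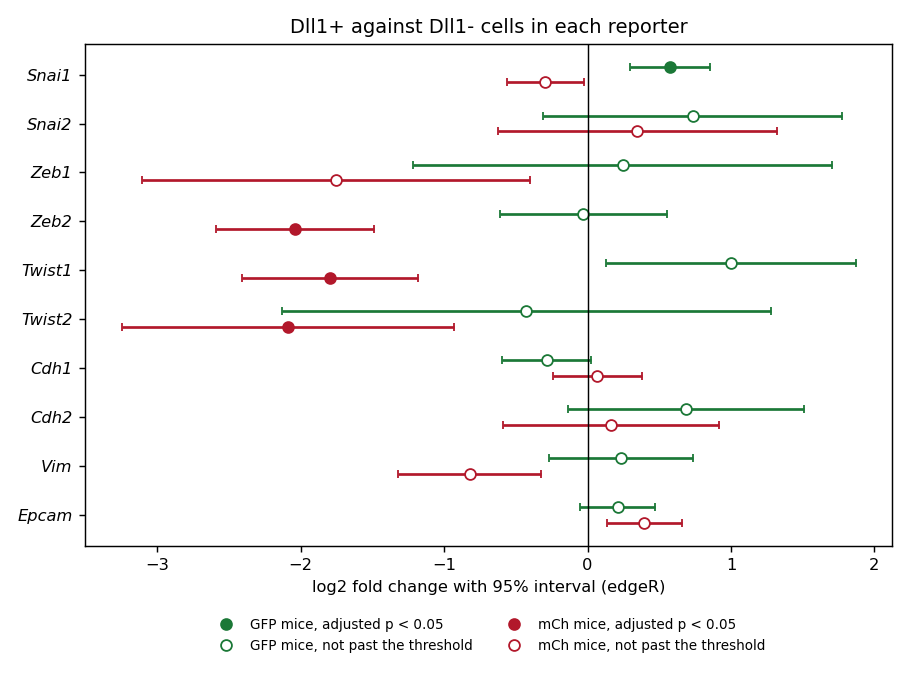
Log2 fold change of Dll1+ over Dll1- cells for each gene in the GFP mice (green) and mCh mice (red), with bars for the 95% interval from edgeR and filled points for an adjusted p under 0.05. Filled are Snai1 in the GFP mice (0.57) and Zeb2, Twist1 and Twist2 in the mCh mice (-2.04, -1.79 and -2.09).

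Stromal markers moved with these falls. In the mCh mice, 7 of the 14 fibroblast markers were lower in Dll1+ cells and 0 were higher, with Twist2 among the 7. Lower as well were 9 of 11 pericyte and smooth muscle, 6 of 12 endothelial and 10 of 12 immune markers, against 6.25% of all genes tested. The immune marker Cd14 was higher. Without mouse 4, 12 fibroblast, 7 pericyte and smooth muscle, 4 endothelial and 8 immune markers were called in either direction, and without mouse 3 these counts were 14, 8, 11 and 8. The summed fibroblast markers differed between Dll1+ and Dll1- cells by -1.20 (log2) in mouse 3 and -2.66 in mouse 4, where Zeb1 differed by -0.81 and -2.72, Zeb2 by -1.63 and -2.43, Twist1 by -1.66 and -1.89 and Vim by -0.46 and -1.18. In mice 1 and 2 the summed fibroblast markers differed by -0.12 and -0.16. The part of stromal RNA in the falls was not tested. Without mouse 4, only Zeb2 kept its call (log2 fold change -1.66, adjusted p = 0.0285), with Twist1 at -1.71 (adjusted p = 0.0830) and Twist2 at -1.33 (adjusted p = 0.200). Without mouse 3 there were 5 calls, all lower, since Zeb1 (log2 fold change -2.75, adjusted p = 0.00301) and Vim (-1.20, adjusted p = 0.0176) joined the other 3. With the 4 mCh libraries fitted alone there were 0 calls, with no mouse block there was 1 (Zeb2), and Twist2 lost its call without either GFP mouse (adjusted p = 0.0765 without mouse 1 and 0.0799 without mouse 2).

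**Figure D3:**
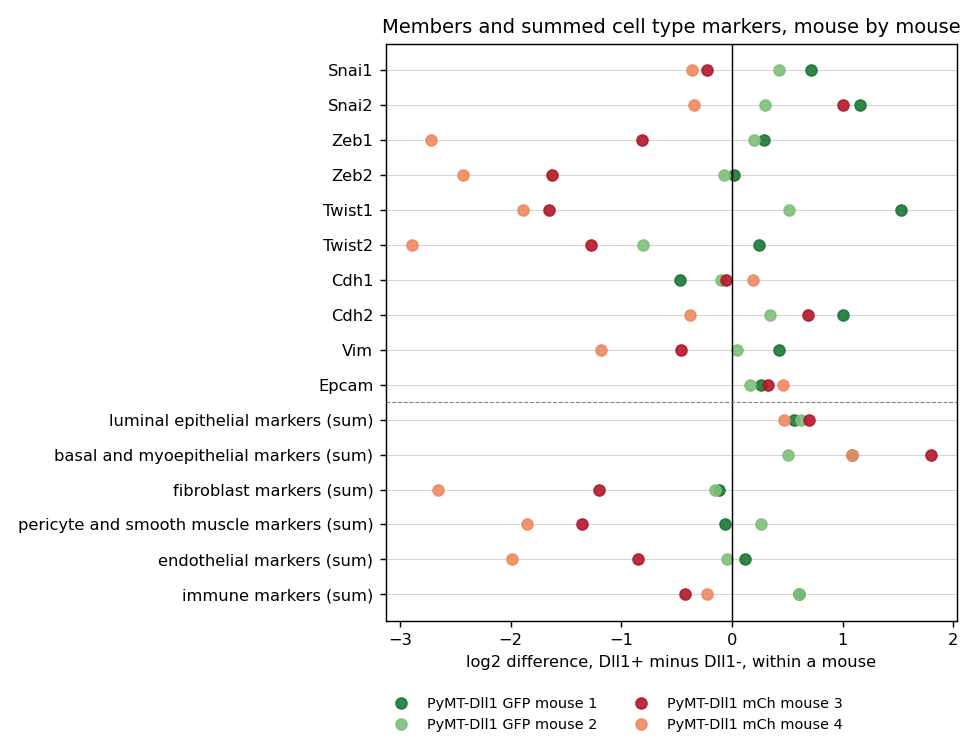
Log2 ratio of the Dll1+ to the Dll1- level within a mouse (horizontal axis), 1 point per mouse, for the 10 genes and, below the dashed line, for the summed CPM of 6 lists of cell type markers. In mCh mice 3 and 4, Zeb1, Zeb2, Twist1, Twist2 and Vim lie left of 0 together with the fibroblast sum (-1.20 and -2.66), and the basal sum and the luminal sum, whose difference is mostly Csn3, lie right of 0 in 4 of 4 mice.

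Whether the Dll1+ effect itself differed between the reporters was tested as an interaction. Here 0 of the 10 genes passed edgeR's test, against 0.0710% of all genes tested, which is 13 genes. At an unadjusted p under 0.05 there were 5 of the 10, beside 2420 of the 18322 genes tested. DESeq2 called 4 (Snai1, Zeb2, Twist1 and Vim), beside 541 of the 18322. Twist1 had a difference of -2.79 ± 0.44 (log2, SE) between the mCh and the GFP effect, with an adjusted p of 0.0879, and Zeb2 one of -2.01 ± 0.33, with an adjusted p of 0.0906. For Snai1 the difference was -0.87 ± 0.16, with an adjusted p of 0.118. Snai1, Zeb1, Twist1 and Vim were higher in Dll1+ cells in both GFP mice and lower in both mCh mice. Without mouse 3, 4 genes passed (Zeb1, Zeb2, Twist1 and Vim, adjusted p from 0.00685 to 0.0434). Without mouse 4 none of the 10 did, and the values of these 4 genes ran from -0.73 to -2.72.

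The widest differences in these genes were between the reporters. In Dll1- cells, 6 of the 10 genes were higher in mCh than in GFP mice and 0 were lower, against 34.9% of the 19843 genes tested, 19.0% higher. The median log2 fold change of the 10 was 2.17, beside 0.03 over all tested genes. Twist1 was 27.7-fold higher (log2 fold change 4.79 ± 0.70 SE, adjusted p = 0.00412), Vim 14.4-fold (3.85 ± 0.49, adjusted p = 0.00284), Twist2 12.6-fold (3.65 ± 0.55, adjusted p = 0.00418) and Zeb1 8.83-fold (3.14 ± 0.44, adjusted p = 0.00338). Zeb2 was 6.005-fold higher (2.59 ± 0.33, adjusted p = 0.00274) and Cdh2 3.35-fold (1.75 ± 0.38, adjusted p = 0.0133). For each of the 6, both mCh libraries lay above both GFP libraries. Snai2 (1.13 ± 0.39, adjusted p = 0.0635) and Snai1 (0.67 ± 0.30, adjusted p = 0.135) did not pass, and the intervals include differences from 0.20 to 2.06 for Snai2 and from -0.06 to 1.39 for Snai1. The epithelial genes did not pass either in edgeR's test. DESeq2 called 8 of the 10, against 7205 of the 19843 genes tested. These were the 6 with Snai2 (adjusted p = 0.0385) and Cdh1 (adjusted p = 0.0280). The filter of at least 10 counts also gave Cdh1 in edgeR's test (adjusted p = 0.0463). Cdh1 was 1.296-fold lower in mCh mice (-0.37 ± 0.13 on the log2 scale, adjusted p = 0.0631) and Epcam had a log2 fold change of -0.0020 ± 0.11, with a 95% interval from -0.26 to 0.26.

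In Dll1+ cells, 2 of the 10 genes were higher in mCh mice, against 27.6% of all genes tested, 13.0% higher. Vim was at 355 and 580 CPM in mice 3 and 4 against 77.5 and 71.4 CPM in mice 1 and 2, a 6.20-fold difference (log2 fold change 2.63 ± 0.46 SE, adjusted p = 0.0104). Twist2 was 3.88-fold higher (1.96 ± 0.55, adjusted p = 0.0395), at 70 and 30 counts in mice 3 and 4 against 6 and 9 counts in mice 1 and 2. It did not pass the filter on low counts in the GFP libraries alone, and entered both comparisons between reporters through its mCh libraries. Twist1 (1.94 ± 0.62, adjusted p = 0.0583), Cdh2 (1.12 ± 0.36, adjusted p = 0.0594) and Zeb1 (1.06 ± 0.41, adjusted p = 0.0955) were higher in both mCh than in both GFP libraries without passing the test. Zeb2, at 3.98 and 4.62 CPM against 3.14 and 3.06 CPM, differed by 0.46 ± 0.32 on the log2 scale (adjusted p = 0.318). Which genes passed in Dll1+ cells depended on the libraries fitted. Without mouse 4 there were 4, Vim, Twist2, Zeb1 (log2 fold change 1.47, adjusted p = 0.00378) and Cdh2 (1.41, adjusted p = 0.0240), and without mouse 3 there were 2, Vim and Twist1 (2.37, adjusted p = 0.00769). The fit pooled Dll1- and Dll1+ libraries of the same mice. With the Dll1+ libraries fitted alone, Twist2 did not pass (adjusted p = 0.0509) and Twist1 did (adjusted p = 0.0370). Both comparisons between reporters use the same libraries as the comparisons within mice, and reporter, mouse and any batch of sorting or sequencing cannot be told apart. With 1 GFP mouse left out, 0 genes of the whole table passed in either cell type (4615 to 5919 at an unadjusted p under 0.05), and the 6 genes of the Dll1- comparison then had adjusted p from 0.0787 to 0.104.

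**Figure D4:**
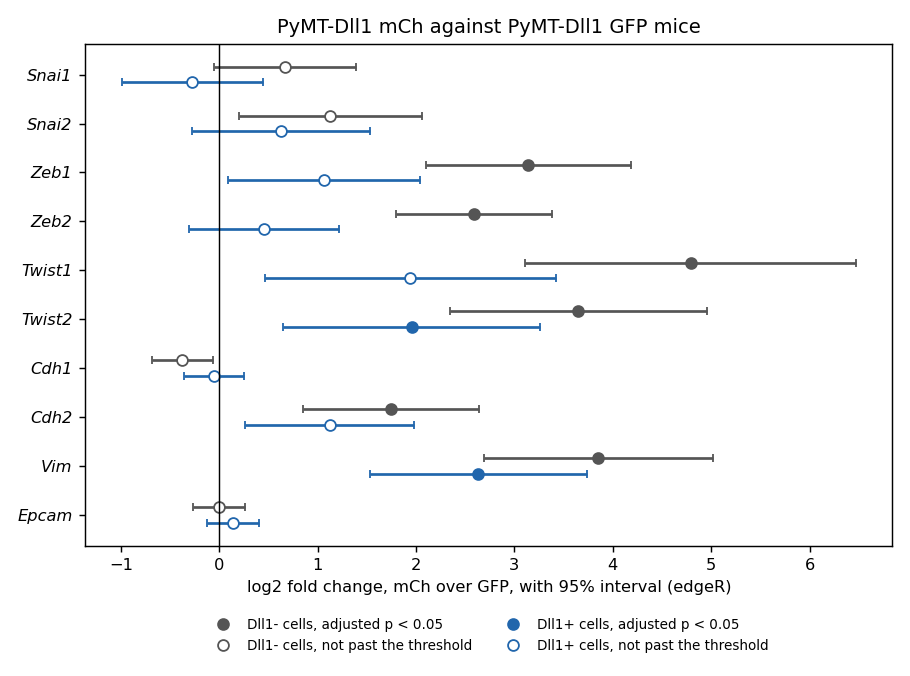
Log2 fold change of mCh over GFP mice for each gene in Dll1- cells (grey) and Dll1+ cells (blue), with bars for the 95% interval from edgeR and filled points for an adjusted p under 0.05. The 6 filled points in Dll1- cells run from 1.75 (Cdh2) to 4.79 (Twist1), and Epcam sits at 0 in Dll1- and at 0.14 in Dll1+ cells.

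Stromal markers moved with the reporter as well. All 14 fibroblast markers were higher in mCh than in GFP Dll1- cells (median log2 fold change 3.68), as were 10 of 11 pericyte and smooth muscle, 12 of 12 endothelial and 12 of 13 immune markers. Of all genes tested, 19.0% were higher in Dll1- cells and 13.0% in Dll1+ cells. Twist2, itself one of the 10 genes, is among the fibroblast markers counted as higher in both. In Dll1+ cells, 8 of the 14 fibroblast markers were higher (median log2 fold change 1.55), and 12 were called without mouse 3 or without mouse 4. Across the 8 libraries, Vim, Zeb2 and Twist1 were highest in the Dll1- library of mouse 4, which had the most fibroblast marker RNA, and Zeb2 and Twist1 were second in the Dll1- library of mouse 3, which had the next most, whereas Vim was second in the Dll1+ library of mouse 4. Cdh1 was at 477 and 450 CPM in the mCh Dll1- libraries and at 459 to 675 CPM in the others. Without mouse 4, the same 6 genes passed in Dll1- cells, with log2 fold changes from 1.44 for Cdh2 to 3.98 for Twist1. Without mouse 3, Snai2 (adjusted p = 0.0200) and Snai1 (adjusted p = 0.0301) passed as well. The part of stromal RNA in these differences was not tested.

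**Figure D5:**
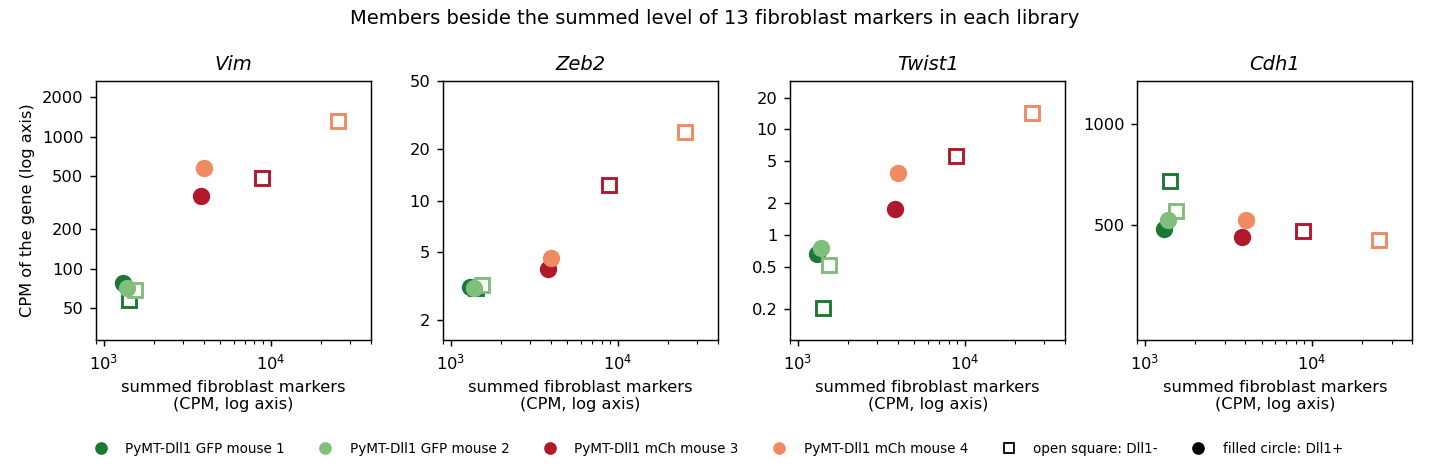
CPM of Vim, Zeb2, Twist1 and Cdh1 (vertical, log axis) against the summed CPM of 13 fibroblast markers (horizontal, log axis) in the 8 libraries, with open squares for Dll1- and filled circles for Dll1+ libraries. The 4 libraries of the GFP mice sit at 1301 to 1541 CPM of fibroblast markers and the Dll1- library of mCh mouse 4 at 25318 CPM, where Vim (1316 CPM), Zeb2 (25.1 CPM) and Twist1 (14.3 CPM) are highest.

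Other genes of the transition were read from lists. Of 26 epithelial junction and polarity genes, 2 rose in Dll1+ cells over the 4 mice and 0 fell, with a median log2 fold change of 0.07. Of all genes tested 14.0% were called in this comparison, which is the background of the lists that follow. They were the tight junction claudin Cldn1 (0.50 ± 0.08 SE, adjusted p = 0.0171) and occludin, Ocln (0.37 ± 0.08, adjusted p = 0.0323). Cldn1 went from 83.8 to 117 CPM in mouse 1, 72.6 to 87.7 CPM in mouse 2, 25.7 to 42.7 CPM in mouse 3 and 64.3 to 92.3 CPM in mouse 4. The number of the 26 called, in either direction, was 0 without mouse 1, 1 without mouse 2, 0 without mouse 3, 4 without mouse 4 and 0 with no mouse block. Within the GFP mice 0 of the 26 rose and 2 fell, where 9.13% of all genes tested were called. Within the mCh mice 4 rose and 0 fell, where 11.8% were called. Between reporters, 6 of the 26 were lower in mCh Dll1- cells and 0 were higher. Of all genes tested, 34.9% were called there in either direction, 19.0% higher. Among the 6 were the scaffold gene Tjp1 (-0.99 ± 0.13, adjusted p = 0.00306) and cingulin, Cgn (-0.83 ± 0.13, adjusted p = 0.00409).

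Of 17 epithelial regulators, 2 rose and 1 fell in Dll1+ cells. Klf5, a Krüppel-like factor of epithelia (0.52 ± 0.09 SE, adjusted p = 0.0182), and Trps1, a GATA-type repressor (0.40 ± 0.10, adjusted p = 0.0483), were higher. Foxa1, a pioneer factor of luminal cells, fell by 1.88 on the log2 scale (SE 0.33, adjusted p = 0.0244), from 21.8 to 3.62 CPM in mouse 1, 18.7 to 3.22 CPM in mouse 2, 8.54 to 2.97 CPM in mouse 3 and 12.5 to 6.70 CPM in mouse 4. The number called was 0 without mouse 1, mouse 2 or mouse 3, 2 without mouse 4 and 2 with no mouse block. Within the GFP mice 0 of the 17 rose and 2 fell, where 9.13% of all genes tested were called. Within the mCh mice 5 rose and 1 fell, where 11.8% were called. In mCh Dll1- cells 7 of the 17 were lower than in GFP Dll1- cells and 0 were higher. Of all genes tested, 34.9% were called there in either direction, 19.0% higher. The 7 included Grhl2, a grainyhead factor that opposes Zeb1 (-0.72 ± 0.11, adjusted p = 0.00459). The splicing regulators Esrp1 (-0.61 ± 0.14, adjusted p = 0.0165) and Esrp2 (-0.62 ± 0.19, adjusted p = 0.0393) were also among them.

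Of the mesenchymal and EMT-induced genes, 29 of 31 listed names were in the table. Over the 4 mice 2 of them rose in Dll1+ cells, Tpm2 (beta-tropomyosin, 0.99 ± 0.08 SE, adjusted p = 0.00534) and Ncam1 (a neural adhesion molecule, 0.72 ± 0.16, adjusted p = 0.0416), and 1 fell, the fibronectin receptor subunit Itga5 (-0.996 ± 0.20, adjusted p = 0.0346). Tpm2 went from 13.3 to 25.6 CPM in mouse 1, 20.3 to 37.3 CPM in mouse 2, 43.2 to 102 CPM in mouse 3 and 158 to 291 CPM in mouse 4. The number called was 1 without mouse 1 or mouse 3, 2 without mouse 2 or mouse 4 and 0 with no mouse block. The list was not of one direction within the mCh mice either, where 5 fell and 2 rose, against 11.8% of all genes called. Fibronectin (Fn1, -1.67 ± 0.18, adjusted p = 0.0105) was among the 5. Between reporters, 19 of the 29 were higher in mCh Dll1- cells and 14 in mCh Dll1+ cells, and 0 were lower in both. Of all genes tested, 19.0% were higher in the Dll1- and 13.0% in the Dll1+ comparison. The matrix gene Sparc was at 3.78 ± 0.39 (adjusted p = 0.00192) in Dll1- cells.

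Of 22 tested further EMT transcription factors, Sox9 rose over the 4 mice (0.54 ± 0.08 SE, adjusted p = 0.0150), and Tbx3 (-2.01 ± 0.32, adjusted p = 0.0179) and Id3 (-0.74 ± 0.16, adjusted p = 0.0383) fell. Sox9, an SRY-box factor of mammary progenitors, rose from 311 to 407 CPM in mouse 1, 317 to 418 CPM in mouse 2, 157 to 245 CPM in mouse 3 and 197 to 327 CPM in mouse 4. The number of the 22 called was 1 without mouse 1 or mouse 3. Within the mCh mice 3 of the 22 rose and 5 fell, where 11.8% of all genes tested were called. Of 23 tested between reporters in Dll1- cells, 6 were higher in mCh mice and 3 were lower. Of all genes tested, 34.9% were called there in either direction, 19.0% higher. Prrx1, a paired-type homeobox factor of mesenchyme, was among the 5 (-1.48 ± 0.25, adjusted p = 0.0265) and among the 6 (3.51 ± 0.45, adjusted p = 0.00291). Of 15 genes of TGF-beta signaling, an inducer of the transition, 1 rose over the 4 mice, the SMAD corepressor Skil (0.56 ± 0.09, adjusted p = 0.0149), and 0 fell. There were 0 calls in this list without mouse 1, without mouse 3 and with no mouse block, and 2 without mouse 4.

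Of 20 other cadherins, 8 passed the filter on low counts. Cdh19, a type II cadherin, rose in Dll1+ cells over the 4 mice (0.63 ± 0.09 SE, adjusted p = 0.0118), from 30.3 to 51.9 CPM in mouse 1, 23.2 to 29.9 CPM in mouse 2, 9.27 to 14.9 CPM in mouse 3 and 7.62 to 12.2 CPM in mouse 4, and was called in each reporter. Over the 4 mice, 0 of these cadherins were called without mouse 1, without mouse 3 and with no mouse block. Cdh11, the cadherin of mesenchymal cells, did not pass within mice (adjusted p = 0.200) and was higher in mCh Dll1- cells (3.21 ± 0.37, adjusted p = 0.00231). Cdh5, the endothelial cadherin, was likewise higher there (2.42 ± 0.37, adjusted p = 0.00490), beside the endothelial sums given above. Cdh19 was lower there (-1.63 ± 0.30, adjusted p = 0.00835). Of the 10 other cadherins tested in that comparison, 4 were higher and 1 was lower. Of all genes tested, 34.9% were called there in either direction, 19.0% higher. Cdh3, the P-cadherin of basal cells, differed by 0.27 ± 0.34 on the log2 scale over the 4 mice (adjusted p = 0.628).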

How the data were processed

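Mammary tumor cells of 4 mice were sorted into Dll1- and Dll1+ populations, and RNA was sequenced in 8 libraries from a stranded kit. The authors mapped the reads with salmon (version not given in the sources used here) to GENCODE M20 transcripts (GRCm38.p6), used tximport to sum transcripts per gene, and the deposited values are estimated counts, whole and not normalized. Symbols, positions and transcript lengths came from GENCODE M21, in which 53668 of the 53697 gene identifiers matched. The strand setting of the counting is not given.

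The test was that of edgeR 4.0.16 under R 4.3.3 (TMM, filterByExpr, robust quasi-likelihood F test), with p-values adjusted by the Benjamini-Hochberg method over all tested genes and a threshold of 0.05. Dll1+ and Dll1- cells were compared with the mouse as a block, over the 4 mice and with a separate effect per reporter from a fit of all 8 libraries, whose contrast gave the difference between reporters. mCh and GFP mice were compared among 4 group means, without a block. The pairs come from the mouse named in the labels. The deviations of paired libraries from their group means correlated at -0.05 in the GFP and 0.55 in the mCh mice. There was 1 library per mouse and sort. Within mice, p-values measure the spread of the Dll1+ to Dll1- difference among the 4 mice, pooled over the reporters where each has its own effect. Between reporters, they measure the spread between 2 mice a group, pooled over the 4 groups. Log2 differences within a mouse used a prior count of 2. The limit of detection of 3 counts was 0.0240 to 0.105 CPM, and covers counting error only.

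The genes, the other lists and the tests were chosen with earlier results of these data known. Named were each of the 10 genes, up to 4 genes of each other list with the lowest p over the 4 mice and up to 3 with the lowest p between reporters in Dll1- cells. Cdh3, Esrp1, Esrp2, Fn1 and the Prrx1 value within the mCh mice were named after their values were seen. One gene of the epithelial junction and polarity list is not reported here and was left out of its counts. Likeness of profiles was the root mean square difference of centred log2 CPM, among genes whose mean reached 5 CPM. The alternatives were RLE size factors, DESeq2 1.42.0, no mouse block, no filter, a minimum of 10 counts per library, each reporter or Dll1 status fitted alone, and each mouse left out. The scripts were tested on simulated data. Promoter sequences are RefSeq's.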

Additional observations from a re-analysis of the deposited data

Results flagged for a closer look

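For 4 of the 10 genes, both GFP mice had the higher level in Dll1+ cells and both mCh mice the lower. The log2 fold change in mCh minus that in GFP mice was -0.87 for Snai1, -1.997 for Zeb1, -2.79 for Twist1 and -1.06 for Vim. The test of the difference itself (edgeR) gave adjusted p of 0.118, 0.375, 0.0879 and 0.241, so none of the 4 passed. Mouse by mouse, Twist1 differed by 1.52 and 0.52 (log2) in mice 1 and 2 and by -1.66 and -1.89 in mice 3 and 4, while Vim differed by 0.42 and 0.04 and by -0.46 and -1.18. The summed fibroblast markers differed by -0.12 and -0.16 in mice 1 and 2 and by -1.20 and -2.66 in mice 3 and 4, and their part in the difference was not tested.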

How the results depend on the processing

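Over the 10 genes in the 6 comparisons, 467 values under another setting kept their direction and their side of the threshold, 38 passed it only there, 30 passed it only in the reported fit and 12 turned in direction. With 1 mouse left out, the values that turned ran, over the 4 mice, from -0.057 to 0.29 for Snai1 and -0.21 to 0.017 for Cdh1. In GFP mice they ran from -0.067 to 0.017 for Zeb2 and -0.91 to 0.29 for Twist2. In mCh mice they ran from -0.37 to 0.98 for Snai2, -0.41 to 0.66 for Cdh2 and -0.082 to 0.17 for Cdh1. The difference ran from -1.11 to 0.24 for Snai2 (0.042 without GFP mouse 1), and Epcam between reporters in Dll1- cells from -0.11 to 0.055 (0.045 without mCh mouse 4), which was 0.017 with no filter. None of these had been called.

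The number of the 10 called moved over the 4 mice from 0 to 1 with RLE, DESeq2 or the 10-count filter, in GFP mice from 1 to 2 with no filter, in mCh mice from 3 to 6 with DESeq2, 1 with the 10-count filter (which removes Twist1 and Twist2) and 0 with that reporter fitted alone, in the difference from 0 to 4 with DESeq2 or no filter, and between reporters in Dll1+ cells from 2 to 4, 5 and 1 with DESeq2, no filter and the 10-count filter. With 1 mouse left out these counts ran from 0 to 0, 0 to 1, 1 to 5, 0 to 4, 0 to 8 and 0 to 4 in the 6 comparisons. With no replicate block, 1 of the 10 was called over the 4 mice (Zeb2), 0 in GFP mice, 1 in mCh mice (Zeb2) and 0 in the difference, and 1207, 274, 212 and 0 genes of the whole table, against 2568, 1673, 2154 and 13.

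Genes called in the whole table came to 4362 over the 4 mice with DESeq2, 3001 in GFP and 3637 in mCh mice with no filter, 0 in mCh mice fitted alone (5512 at an unadjusted p under 0.05), and 541, 1143 and 44 in the difference with DESeq2, no filter and the 10-count filter. With 1 mouse left out they ran from 405 to 2401 over the 4 mice, 2 to 2355 in GFP mice, 905 to 1315 in mCh mice, 0 to 717 in the difference, and 0 to 7832 and 0 to 6792 between reporters. Where a setting removes a mouse it also removes a residual pair; otherwise the cause was not tested. Counting precision was lowest for Twist1 and Twist2 in the GFP mice, at 5 to 34 counts a library.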

Other observations

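Among 11738 genes whose mean reached 5 CPM, the genes whose profile over the 8 libraries lay nearest to each of the 10 genes were found by the root mean square difference of centred log2 CPM, given here as a description. For Epcam they were Ube2e2, Pex13 and Phldb3 (0.0499 to 0.0531), and for Cdh1 Chd4, Gnai3 and Srsf10 (0.0593 to 0.0710). For Snai1 they were Marveld1, Gdpd3 and Plcl1 (0.139 to 0.143). Zeb2 lay nearest to the imprinted non-coding gene Meg3 (0.109), and Zeb1 nearest to Dchs1 and the endothelial adhesion gene Esam (0.191 and 0.209). Vim was nearest to Gpx8, B4galt2 and podoplanin, Pdpn (0.125, 0.181 and 0.277). For Twist1 the nearest was Ccdc80 (0.407), and Twist2, Cdh2 and Snai2 came to 0.263 (Clmp), 0.269 (Renbp) and 0.210 (Eva1b). These distances cannot be ranked between the 10 genes, since they depend on how far each gene itself spreads. The root mean square of the centred log2 CPM was 1.84 for Twist1 and 1.65 for Vim, against 0.175 for Cdh1 and 0.166 for Epcam.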
